A study of Mus musculus with 9 samples.

Results

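Genes that report on the unfolded protein response and the integrated stress response were followed in regulatory T cells (Tregs) from arthritic and untreated mice. The genes were taken by name: Hspa5, Sdf2l1, Dnajb9, Herpud1, Xbp1, Atf4, Ddit3, Asns, Trib3 and Ppp1r15a. They are 10 of the 23420 gene rows of the table, and all 10 passed the filter on low values (a mean normalised count of 10 or more over the 9 libraries), as did 11357 genes in all. The study sequenced RNA libraries from 3 groups of 3 libraries each. Synovial Tregs and draining lymph node Tregs came from mice with collagen-induced arthritis, a joint inflammation raised by immunisation with collagen, and the third group was draining lymph node Tregs of untreated control mice. All animals carry the genotype label WT and a YFP reporter of Foxp3, the defining transcription factor of Tregs. Paws and nodes were digested and YFP-positive cells were sorted. Each arthritic mouse number appears once in each tissue, and the controls are other animals. The sources used here do not give age, sex or strain. The groups are called synovium, arthritic node and control node.

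Secreted and membrane proteins fold in the endoplasmic reticulum (ER). When unfolded proteins build up there, the sensors IRE1, PERK and ATF6 start the unfolded protein response. IRE1 splices Xbp1 mRNA into the form that encodes an active factor, ATF6 is cut to release a factor that induces ER chaperones, and PERK phosphorylates the initiation factor eIF2. PERK shares that last step with GCN2 (amino acid shortage), PKR (double-stranded RNA) and HRI (haem shortage). Together they form the integrated stress response, in which most translation slows while ATF4 is translated, and ATF4 with CHOP (the product of Ddit3) induces amino acid, redox and cell death genes. GADD34, the product of Ppp1r15a, brings a phosphatase to eIF2 and so ends the response. Counts per gene measure mRNA level and show neither the splicing of Xbp1 nor the translation of Atf4.

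The promoters of 5 of the genes are printed because each holds letters that match an element described in stress-responsive promoters. Each window runs from 250 bases before the annotated start to 50 after it, 5′ to 3′ on the strand of the gene, from RefSeq (GRCm38.p6), and capitals mark the matched elements. All 10 genes were found in that table.
Hspa5 (chr2:34771840-34772139, plus strand, ER stress element in capitals): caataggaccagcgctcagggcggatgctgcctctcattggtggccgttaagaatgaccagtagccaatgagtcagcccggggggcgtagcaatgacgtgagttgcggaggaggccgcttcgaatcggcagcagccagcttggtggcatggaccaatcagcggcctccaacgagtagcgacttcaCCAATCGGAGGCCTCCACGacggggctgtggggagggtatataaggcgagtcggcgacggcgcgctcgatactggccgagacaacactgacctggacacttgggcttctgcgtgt
Herpud1 (chr8:94386179-94386478, plus strand, in order the C/EBP-ATF element read on the other strand, ER stress element II and the loose ER stress element): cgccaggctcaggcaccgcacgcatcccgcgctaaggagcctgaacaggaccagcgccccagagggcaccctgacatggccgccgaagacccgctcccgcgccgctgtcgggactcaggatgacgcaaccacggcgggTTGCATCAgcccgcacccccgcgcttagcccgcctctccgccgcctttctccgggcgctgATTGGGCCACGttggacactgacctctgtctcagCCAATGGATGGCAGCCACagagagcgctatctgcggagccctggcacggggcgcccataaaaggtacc
Asns (chr6:7693160-7693459, minus strand, C/EBP-ATF element): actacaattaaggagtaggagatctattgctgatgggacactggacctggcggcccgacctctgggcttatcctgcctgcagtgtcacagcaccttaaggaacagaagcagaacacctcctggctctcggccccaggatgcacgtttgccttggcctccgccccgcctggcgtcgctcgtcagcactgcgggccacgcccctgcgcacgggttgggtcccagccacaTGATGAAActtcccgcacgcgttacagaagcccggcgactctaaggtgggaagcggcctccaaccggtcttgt
Trib3 (chr2:152344011-152344310, minus strand, C/EBP-ATF element read on the other strand): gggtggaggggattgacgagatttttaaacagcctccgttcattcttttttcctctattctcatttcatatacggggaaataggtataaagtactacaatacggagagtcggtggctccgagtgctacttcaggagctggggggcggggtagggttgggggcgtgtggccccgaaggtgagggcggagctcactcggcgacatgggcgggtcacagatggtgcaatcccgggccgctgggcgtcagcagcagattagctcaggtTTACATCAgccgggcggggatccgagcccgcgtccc
Ppp1r15a (chr7:45526219-45526518, minus strand, cAMP response element): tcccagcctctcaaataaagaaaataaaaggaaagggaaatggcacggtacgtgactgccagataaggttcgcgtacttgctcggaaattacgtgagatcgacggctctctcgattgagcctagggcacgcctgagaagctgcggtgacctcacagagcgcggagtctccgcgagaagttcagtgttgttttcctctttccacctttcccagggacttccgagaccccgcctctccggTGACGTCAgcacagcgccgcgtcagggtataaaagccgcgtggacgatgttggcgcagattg

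Elements were searched as fixed letters on both strands of 32851 promoter windows of the same length. The ER stress element, which ATF6 binds with the factor NF-Y, was searched as CCAAT and CCACG with 9 bases between them. It lay in the Hspa5 window from -65 to -47 relative to the start and in 0.119% of all windows. ER stress element II, ATTGG and CCACG with 1 base between them, lay in the Herpud1 window from -52 to -42 and in 0.0365% of all. The looser form of the first element, CCAAT and CCAC with 9 bases between them, contains every match of the stricter form. It was also found in Herpud1 from -18 to -1 and in 0.365% of all. The C/EBP-ATF element TGATGNAA, through which ATF4 acts, was present in Herpud1 (-112 to -105), Asns (-23 to -16) and Trib3 (15 to 22), and in 3.97% of all windows. Ppp1r15a held the cAMP response element TGACGTCA, a palindrome, from -12 to -5, as did 1.79% of all windows. The XBP1 core TGACGTGG, present in 0.676% of all windows, is not among the letters of any of the 10 windows. None of the 6 patterns is among the letters of the Sdf2l1, Dnajb9, Xbp1, Atf4 and Ddit3 windows.

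**Figure D1:**
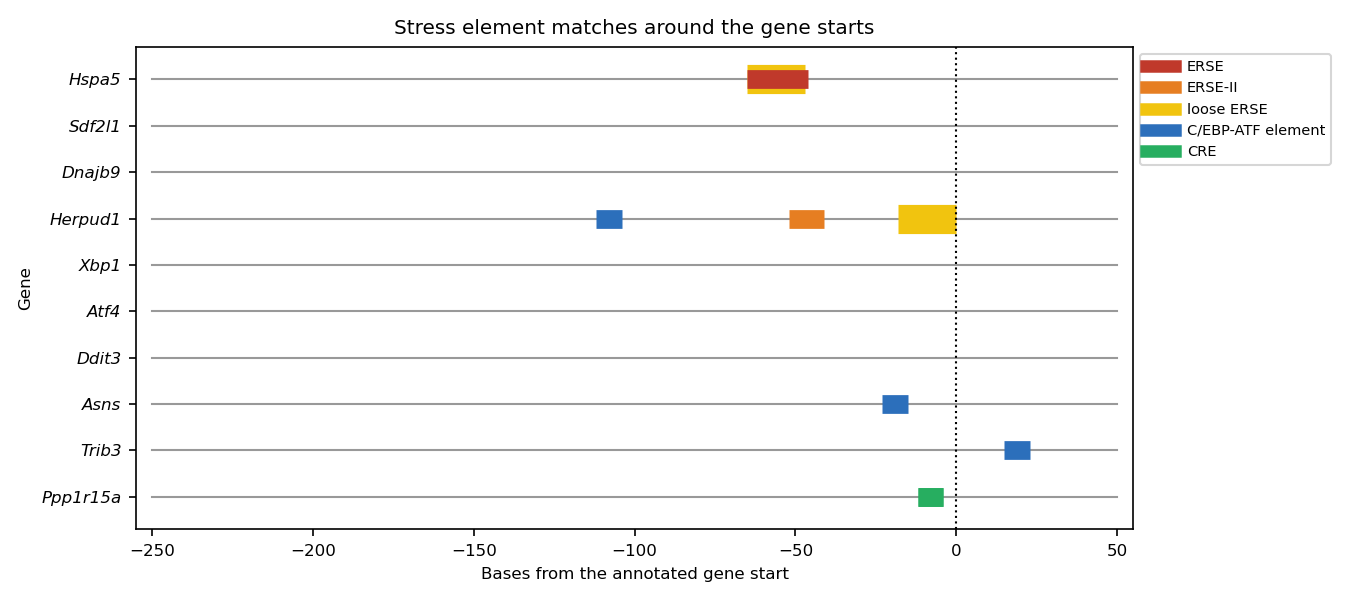
Matched elements in the promoter window of each of the 10 genes, drawn to scale by distance in bases from the annotated start (x axis), 1 row per gene (ERSE is the ER stress element, CRE the cAMP response element). Hspa5, Herpud1, Asns, Trib3 and Ppp1r15a hold matches, those of Hspa5 (-65 to -47), Asns (-23 to -16) and Ppp1r15a (-12 to -5) just before the start, and the other 5 rows are empty.

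The libraries held between 11300406 and 12855435 reads in genes, and a level equal to 3 reads corresponds to a normalised count between 2.61 and 3.52. The tissue was checked first: Foxp3 had normalised counts of 413 to 538 in synovium and 170 to 404 in nodes, and none of the 11 Treg and T cell markers in the table was at 0 in any library. The first principal component (53.1% of the variance) separated synovium from both node groups, and on the second (10.9%) control library 1 stood at 83.5 while the other 8 lay between -41.4 and 18.8. Values without that library stand beside the node comparison. The fits were also made without synovial library 3, where the fibroblast markers had their highest sum, and the same number of the 10 genes, 7, was called in both synovial comparisons without it and, against the control node, without control library 1. Each comparison used limma on log2(normalised count + 1) with Benjamini-Hochberg adjustment over all 11357 genes, and called means an adjusted p under 0.05. Fold changes are on that scale. With 3 mice a group, p-values measure the spread between these libraries.

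In the arthritic mice, 7 of the 10 genes were higher in synovial than in node Tregs and none was lower. Of all genes, 17.9% were called higher in this comparison, 15.9% lower and 33.8% in either direction. The 7 were Hspa5, Dnajb9, Herpud1, Xbp1, Atf4, Asns and Ppp1r15a, with log2 fold changes from 0.76 to 3.75. For each of them all synovial libraries lay above all arthritic node libraries, as they did for 25.2% of all genes. Sdf2l1, Ddit3 and Trib3 were not called. The median of the 10 was 1.28, against -7.25e-05 over all genes tested. In sorted bulk cells, more cells with a gene's mRNA and more of that mRNA per cell cannot be told apart.

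**Figure D2:**
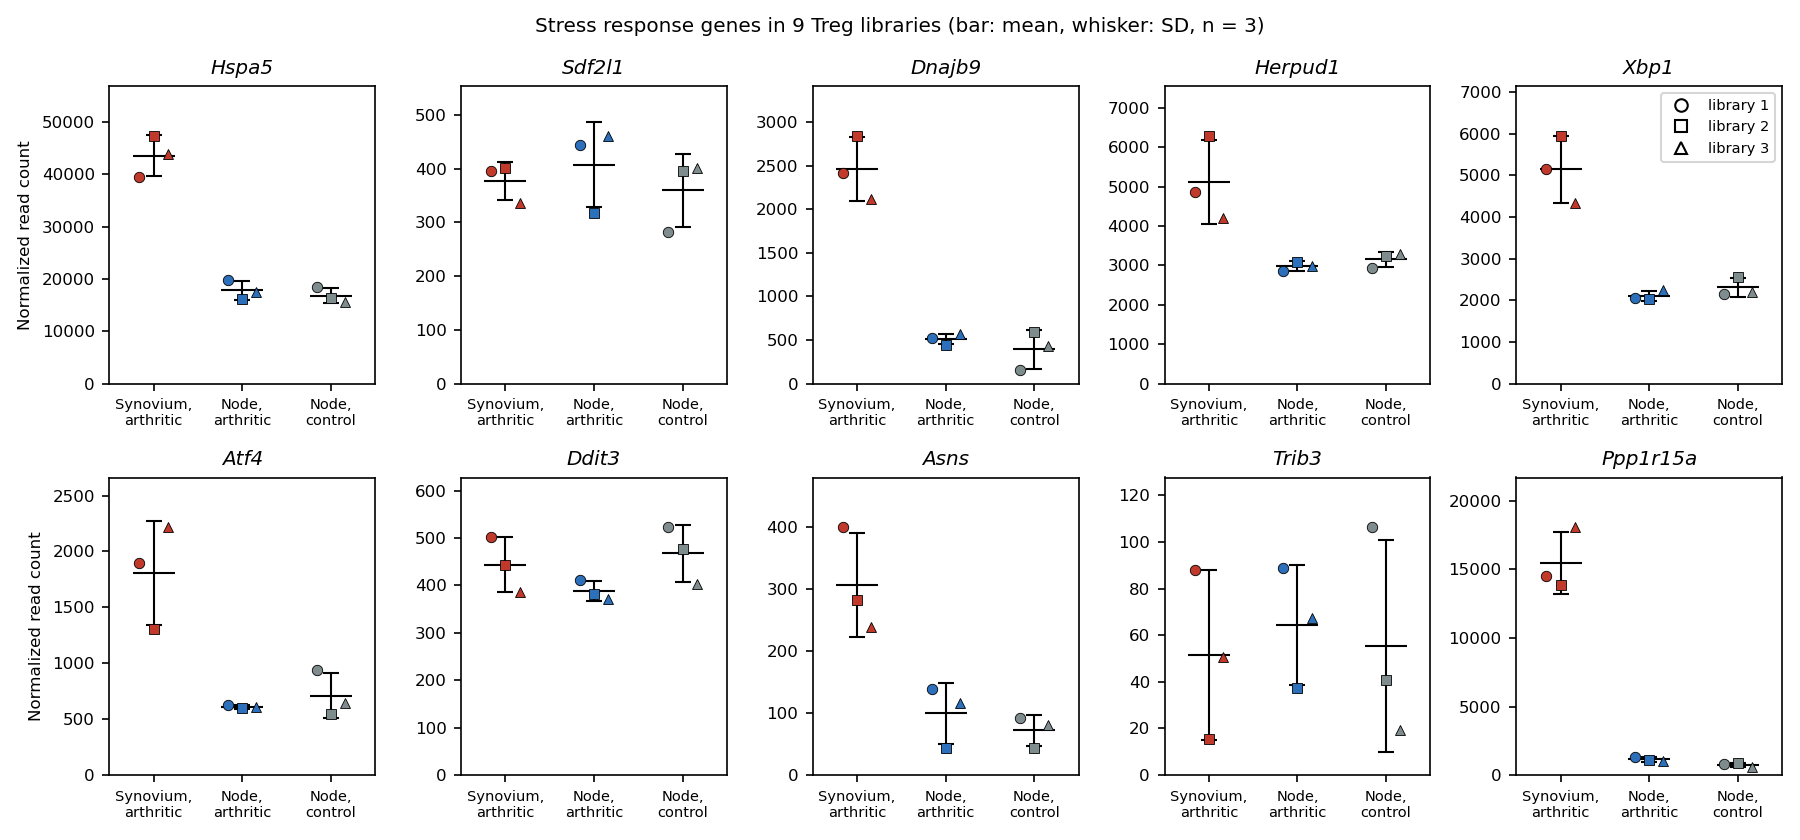
Normalised count of each of the 10 genes (linear axis from 0), 1 point per library, by group (synovium, arthritic node, control node), with the mean as a bar and the SD as whiskers. Points of synovium lie above all node points for Hspa5, Dnajb9, Herpud1, Xbp1, Atf4, Asns and Ppp1r15a, and the groups overlap for Sdf2l1, Ddit3 and Trib3.

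Hspa5, Dnajb9 and Sdf2l1 encode ER chaperones or their partners. Hspa5 (chr2:34771970-34777547, gene spans from GENCODE vM21 on GRCm38) encodes BiP, the main Hsp70 chaperone of the ER and a classical target of ATF6. Its normalised counts were 39450, 47416 and 43941 in synovium, 19811, 16246 and 17536 in the arthritic node, and 18408, 16415 and 15608 in the control node. Every synovial library was higher than every node library, and the node groups overlapped. The log2 fold change of Hspa5 between synovium and arthritic node was 1.29 ± 0.11 (SE), or 2.44-fold, with a limma adjusted p of 2.87e-06. Quantile scaling of the libraries, which makes their distributions equal, left it at 0.70, still called.

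Dnajb9 (chr12:44205559-44210326) encodes ERdj4, a J protein that works with BiP and is induced by spliced XBP1. Its counts were 2420, 2847 and 2123 in synovium and 521, 446 and 567 in the arthritic node. In the control node they were 151, 594 and 432, so that control library 1 was the lowest of the 9. The synovial libraries were again above all 6 node libraries. Between synovium and arthritic node the log2 fold change was 2.26 ± 0.38 (limma adjusted p = 0.000599), the largest among the chaperone genes of the 10.

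Sdf2l1 (chr16:17130138-17132383) encodes a small ER protein that associates with BiP and ERdj3 and is also an ER stress target. It had counts of 394, 400.4 and 336 in synovium, 444, 318 and 461 in the arthritic node, and 281, 395 and 402 in the control node. The 3 groups overlapped. Its log2 fold change between synovium and arthritic node was -0.10, with a 95% interval from -0.58 to 0.39 and a limma adjusted p of 0.777. That interval does not reach the difference estimated for Hspa5 or Dnajb9. The ratio of Hspa5 to Sdf2l1 within a library was 100.008, 118 and 131 in synovium and 44.7, 51.2 and 38.0 in the arthritic node. The group means differed by 1.39 on the log2 scale. Such ratios were chosen after their values were seen, and are given as a description with no test.

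Herpud1 (chr8:94386438-94395377) encodes an ER membrane protein that organises ER-associated degradation, the route by which misfolded proteins are passed to the proteasome. Its counts were 4861, 6296 and 4213 in synovium, 2850, 3098 and 2993 in the arthritic node, and 2941, 3226 and 3295 in the control node. All 3 synovial values were above all 6 node values. The change was the smallest of the 7 called, 0.76 ± 0.13 on the log2 scale or 1.70-fold, with a limma adjusted p of 0.000944. Of the 10, this gene held the most matched elements in its promoter window, 3.

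Xbp1 (chr11:5520659-5525893) encodes the factor that IRE1 activates by splicing. Normalised counts of Xbp1 were 5152, 5958 and 4340 in synovium, 2060, 2022 and 2243 in the arthritic node, and 2157, 2567 and 2205 in the control node. The synovial libraries did not overlap with either node group. The log2 fold change over the arthritic node was 1.28 ± 0.13 (limma adjusted p = 1.25e-05), close in size to that of Hspa5 above.

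Atf4 (chr15:80255184-80257541) encodes the central factor of the integrated stress response. In synovium its counts were 1897, 1308 and 2218, in the arthritic node 630, 596 and 605, and in the control node 939, 550 and 645. The lowest synovial library, number 2, still exceeded the highest node library, control library 1. Atf4 was higher in synovium than in the arthritic node by 1.53 ± 0.22 on the log2 scale, or 2.89-fold (limma adjusted p = 0.000208).

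Ddit3 (chr10:127290774-127296288) encodes CHOP, a factor that PERK signalling induces through ATF4 and that is known for promoting cell death under lasting stress. Its counts were 501, 444 and 385 in synovium, 412, 382 and 371 in the arthritic node, and 523, 478 and 404 in the control node. The highest of the 9 was a control node library. Between synovium and arthritic node it differed by 0.18 on the log2 scale, with a 95% interval from -0.22 to 0.59 and a limma adjusted p of 0.483. It turned to -0.13 when libraries were scaled by their totals. The Atf4 to Ddit3 ratio within a library was on average higher in synovium by 1.35 on the log2 scale, also without a test. Of the exon length of Ddit3, a second annotated gene of that symbol covers 6.13% on the same strand and Mars 3.97% on the opposite strand. Whether the counting used strand is not given in the sources used here.

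Asns and Trib3 are both targets of ATF4, and the windows of both hold a C/EBP-ATF element. Asns (chr6:7675169-7693254) encodes asparagine synthetase, which makes asparagine from aspartate. Its counts were 400.0, 282 and 238 in synovium, 138, 43.3 and 116 in the arthritic node, and 92.3, 43.3 and 80.3 in the control node. The synovial libraries stood above all node libraries, and arthritic node library 2 was the lowest of its group. The log2 fold change was 1.74 ± 0.47 (limma adjusted p = 0.0130). The call was lost without arthritic node library 2 (1.23, adjusted p = 0.0500188) and without synovial library 1 (1.54, adjusted p = 0.0602).

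Trib3 (chr2:152337422-152344032) encodes a pseudokinase that restrains ATF4 and CHOP. It was the least abundant of the 10, with counts of 88.2, 15.3 and 50.6 in synovium, 88.7, 37.5 and 67.3 in the arthritic node, and 106, 40.6 and 19.2 in the control node. Within each group the highest library was over 2-fold above the lowest, and the groups overlapped. The log2 fold change was -0.55 with a 95% interval from -2.18 to 1.08 (limma adjusted p = 0.609). This interval includes a 2-fold change in either direction. The lowest value rests on 13 reads. The sign turned without synovial library 2 (0.13).

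Ppp1r15a (chr7:45522916-45526268) showed the largest change of the 10. Counts of Ppp1r15a were 14512, 13892 and 18093 in synovium, 1329, 1125 and 992 in the arthritic node, and 817, 865 and 578 in the control node. The 3 groups did not overlap with each other at all. Synovium exceeded the arthritic node by 3.75 ± 0.17 on the log2 scale, or 13.5-fold, with a limma adjusted p of 2.43e-08. Only 2.39% of all genes tested had a higher fold change in this comparison. Within a library, Ppp1r15a mRNA was 28.9, 31.3 and 46.9 times that of Ddit3 in synovium and 3.22, 2.94 and 2.67 times in the arthritic node (counts not divided by length).

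**Figure D3:**
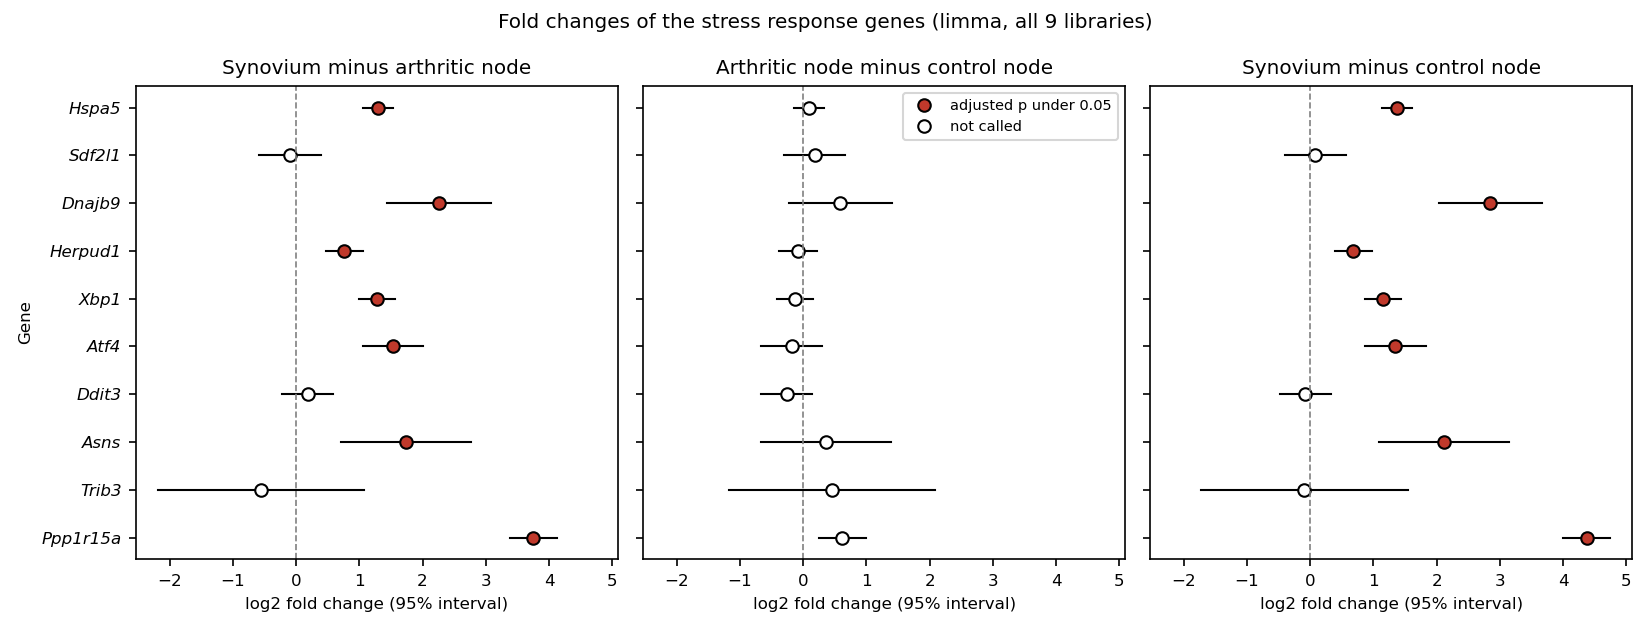
Log2 fold change with its 95% interval for each of the 10 genes (x axis) in the 3 comparisons, from limma on all 9 libraries, with filled points for an adjusted p under 0.05. The 7 called genes lie above 0 in both comparisons with synovium, Ppp1r15a farthest at 3.75 and 4.37, and no gene is called between the node groups.

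Between the arthritic and the control node, 0 of the 10 genes were called by limma, and 0.343% of all genes were (39 genes, 1031 at an unadjusted p under 0.05). Of the 10, 1 had an unadjusted p under 0.05, which was Ppp1r15a. Its arthritic node libraries, from 992 to 1329, were all above the control libraries, from 578 to 865. Libraries of the arthritic node were all higher in 7.89% of all genes. The log2 fold change of Ppp1r15a was 0.62 ± 0.17 (unadjusted p = 0.00331, limma adjusted p = 0.231). With DESeq2 the adjusted p was 0.0473 and Ppp1r15a was the 1 gene of the 10 called, while edgeR called 0. The range of its log2 fold change over the alternatives was 0.44 to 0.73.

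For the other 9 genes the node groups overlapped. Hspa5 differed between arthritic and control node by 0.09 (95% interval -0.15 to 0.32), Herpud1 by -0.08 (-0.37 to 0.21) and Xbp1 by -0.13 (-0.41 to 0.15). The intervals of Sdf2l1 (-0.31 to 0.67), Atf4 (-0.66 to 0.30) and Ddit3 (-0.67 to 0.14) were wider. A 2-fold difference lies outside these 6 intervals. Dnajb9 differed by 0.59 (-0.23 to 1.41), which fell to 0.0070 without control library 1. Without it Sdf2l1 differed by 0.012 (0.18 with it), Trib3 by 1.09 (0.46 with it), Atf4 by 0.036 (-0.18 with it) and Asns by 0.58 (0.37 with it), and none of the 10 was called. That library was the highest control library for Hspa5, Atf4, Ddit3, Asns and Trib3, and the lowest for Sdf2l1, Dnajb9, Herpud1 and Xbp1. The intervals of Asns (-0.66 to 1.39) and Trib3 (-1.17 to 2.09), like that of Dnajb9 above, leave a 2-fold rise within them. The Trib3 interval also holds a 2-fold fall.

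Synovial Tregs were also set against the control node. This comparison shares the synovial libraries with the first and the control libraries with the second, so its values repeat part of both. Of the 10, 7 were called higher and 0 lower, where 21.6% of all genes were called higher and 40.1% in either direction. Synovial libraries all lay above the control libraries in those 7, and in 26.2% of all genes. The log2 fold changes were 4.37 ± 0.17 for Ppp1r15a, 2.85 ± 0.38 for Dnajb9, 2.11 ± 0.47 for Asns, 1.37 ± 0.11 for Hspa5, 1.35 ± 0.22 for Atf4, 1.15 ± 0.13 for Xbp1 and 0.68 ± 0.13 for Herpud1. Those of Sdf2l1 (0.08, limma adjusted p = 0.800), Ddit3 (-0.08, 0.773) and Trib3 (-0.09, 0.939) were near 0. Without control library 1 the value for Dnajb9 was 2.27, still called.

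Levels of different genes were compared per kilobase of exon. In synovium the order was Hspa5 (10310 ± 944 normalised counts per kb, SD, n = 3), Ppp1r15a (5277 ± 772), Herpud1 (2196 ± 457), Xbp1 (1586 ± 249), Dnajb9 (966 ± 143), Atf4 (767 ± 196), Sdf2l1 (340 ± 32.1), Ddit3 (259 ± 33.8), Asns (112 ± 30.6) and Trib3 (24.2 ± 17.2). Herpud1 and Xbp1 overlapped, as did Dnajb9 and Atf4, and other neighbours did not. Hspa5 was first in all 3 groups and Trib3 last. The place of Ppp1r15a was 2 in synovium, 4 in the arthritic node (391 ± 57.7, overlapping with Sdf2l1) and 7 in the control node (256 ± 52.3, overlapping with Ddit3 and Dnajb9). That of Dnajb9 was 5 in synovium and 8 in both node groups, below Sdf2l1 and Ddit3 in mean per-length level.

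**Figure D4:**
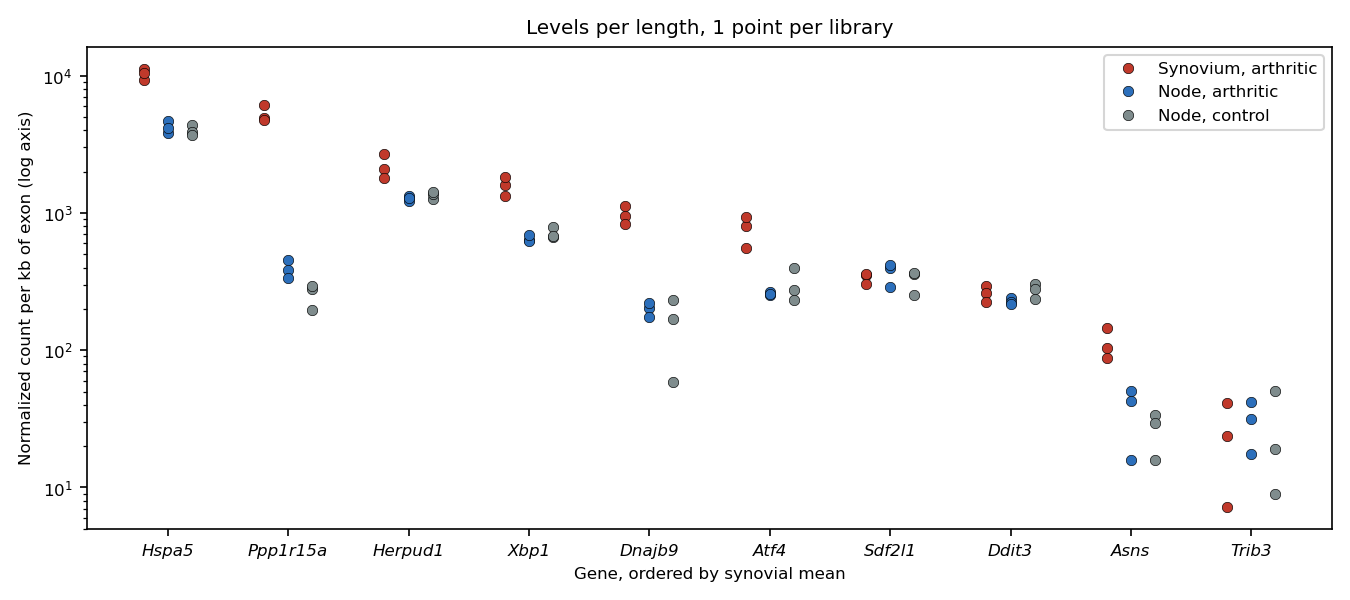
Normalised count per kilobase of exon (log axis) of the 10 genes, ordered by their synovial mean, 1 point per library and 1 colour per group. Hspa5 is the most abundant in all groups, and Ppp1r15a stands second in synovium (5277). It overlaps with Sdf2l1 and lies above Atf4 and Ddit3 in the arthritic node, and lies among all of these in the control node.

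The synovial libraries did not rank alike for all genes. Library 2 was the highest of the 3 for Hspa5, Sdf2l1, Dnajb9, Herpud1 and Xbp1, the 5 genes tied to BiP, ER-associated degradation and IRE1, and the lowest for Atf4, Trib3 and Ppp1r15a. Library 3 was the highest for Atf4 and Ppp1r15a and the lowest for 6 others. Over all genes, library 2 was the highest in 35.6% and library 3 in 36.2%. Library 2 was the lowest in 35.1% of all genes and library 3 in 36.9%. These orders are a description of 3 mice and were not tested. The spread among the synovial libraries (coefficient of variation) ran from 9.16% for Hspa5 to 71.0% for Trib3.

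The other genes of the pathways were read from lists chosen with earlier results of these data known, without a set test. How many rose or fell depends on the scaling. The sum of normalised counts was 1.37e+07 to 1.43e+07 in synovium and 1.08e+07 to 1.14e+07 in the nodes. Scaling by library totals therefore moved the median log2 fold change of all genes by -0.31 and quantile scaling by -0.12. Calls over all genes went from 2034 higher and 1810 lower to 1379 and 3324 (library totals), and to 1711 and 2344 (quantile). All 7 called genes of the 10 were called under both scalings and TMM. List counts are given under the deposited scaling, with those under library totals beside them. They are to be read beside the shares over all genes, 17.9% higher and 15.9% lower. With library totals these were 1379 and 3324 of 11357 genes.

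Among 24 sensors and regulators, 6 were higher and 3 lower in synovium than in the arthritic node, and 4 and 10 with library totals. Of all genes, 17.9% were higher and 15.9% lower, against 25% of this list higher. The median of the list was -0.20. Ern1, which encodes IRE1, had counts of 469, 433 and 753 in synovium and 49.6, 16.4 and 34.1 in the arthritic node, a log2 fold change of 4.10 ± 0.66 (limma adjusted p = 0.000469). Creb3l2, an ATF6-like factor, rose by 3.64, Impact, an inhibitor of GCN2, by 2.35, and Atf6 by 1.58. Eif2ak3, which encodes PERK, was not called (1.31 ± 0.53, limma adjusted p = 0.0787), but was with the mouse as a block (0.0237) and without arthritic node library 2 (0.0154). The other eIF2 kinases were not called either: Eif2ak1 (HRI) differed by 0.21, Eif2ak2 (PKR) by -0.15 and Eif2ak4 (GCN2) by 0.16. Among the lower genes were Eif2b3 (-1.28) and Eif2b1 (-0.47), subunits of the exchange factor that eIF2 phosphorylation inhibits, and D10Wsu52e (-0.53), an older symbol of the ligase that joins spliced Xbp1. The call of Eif2b1 was lost with only the 2 groups compared (adjusted p = 0.0539), and in the same 2 groups with the mouse as a block (0.0701). It was also lost without any 1 library other than synovial library 1 (0.0615 to 0.1004). Ppp1r15b, the constitutive relative of Ppp1r15a, was higher by 0.60 (limma adjusted p = 0.0332). That call was lost without any 1 library other than arthritic node library 2 (adjusted p from 0.0562 to 0.110) as well as without the trend (0.0575), with quantile scaling (0.0616) and with library totals (0.262).

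Of 29 tested ER chaperones and folding enzymes outside the 10, 9 (31%, all genes 17.9%) were higher and 3 lower (all genes 15.9%). With library totals the counts were 3 and 7. The largest rise was that of Ero1l, the oxidase that drives disulphide formation (2.71 ± 0.24), from 396 ± 75.6 in the arthritic node to 2614 ± 672 in synovium (SD, n = 3). Prdx4 (0.74), Creld2 (0.71) and Qsox1 (0.70) were also higher, the first and second of them not called with library totals. Cnpy3 (-1.07), Cnpy2 (-0.62) and Dnajc3 (-0.48), which encodes an inhibitor of PERK, were lower. The call of Cnpy3 was lost without any 1 arthritic node library or synovial library 2 (adjusted p from 0.0695 to 0.0943), and that of Dnajc3 without arthritic node library 2 or synovial library 1 or 3 (0.0508 to 0.0583). Without the trend the adjusted p of Cnpy3 was 0.0566 and that of Dnajc3 0.0594. The lower count of this list was 1 without arthritic node library 2 or without the trend, and 7 with quantile scaling. For 23 genes of ER-associated degradation, 10 (43.5%) were higher and 1 lower, and with library totals 3 and 3. The E2 enzyme gene Ube2j1 rose by 2.24 ± 0.18, Herpud2 by 1.50, Ubxn4 by 1.01 and Erlec1 by 0.72, the last not called under library totals or without arthritic node library 2 or 3 or synovial library 1 or 2 (adjusted p from 0.0676 to 0.113). Edem2 differed by -0.67, a call lost without arthritic node library 3 (adjusted p = 0.0513). Without that library the counts of this list were 6 and 0. Among 32 genes of ER translocation and signal peptide processing, 10 (31.2%) were higher and 0 lower (1 lower without synovial library 2), and with library totals 5 and 8. They include Sec24d (1.86) and Sec23b (0.75), coat proteins of vesicles that leave the ER, and both subunit genes of the signal recognition particle receptor, Srprb (0.96) and Srpr (0.67).

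Of 36 ATF4 and CHOP target genes outside the 10, 26 passed the filter. Of those, 8 (30.8%, all genes 17.9%) were higher and 3 lower (all genes 15.9%), and with library totals 8 and 7. Atf3, a stress-induced factor, had counts of 1056, 850.1 and 937 in synovium and 18.3, 0 and 0 in the arthritic node (limma adjusted p = 0.000251). Dusp4, a MAP kinase phosphatase, rose by 4.61, Tnfrsf10b, a death receptor that CHOP induces, by 3.74, and Ero1l, which is also in the chaperone list, by 2.71. Slc3a2, the shared chain of amino acid transporters and named here after its values were seen, rose by 2.08 ± 0.10 from 2761 ± 274 to 11600 ± 138. The 3 lower genes were Shmt2 (-1.21), Phgdh (-1.10) and Mthfd2 (-0.48), enzymes of serine synthesis and mitochondrial one-carbon metabolism. Among 20 cytosolic aminoacyl-tRNA synthetases, many of which ATF4 induces, 1 (5%) was higher and 6 were lower, and with library totals 1 and 16. The gene that rose was Eprs (2.30 ± 0.14). Farsb (-0.99), Dars (-0.85), Cars (-0.80) and Mars (-0.80) were lower, and the call of Cars was lost without arthritic node library 2 (adjusted p = 0.0763) or 3 (0.0694), or without the trend (0.0633).

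**Figure D5:**
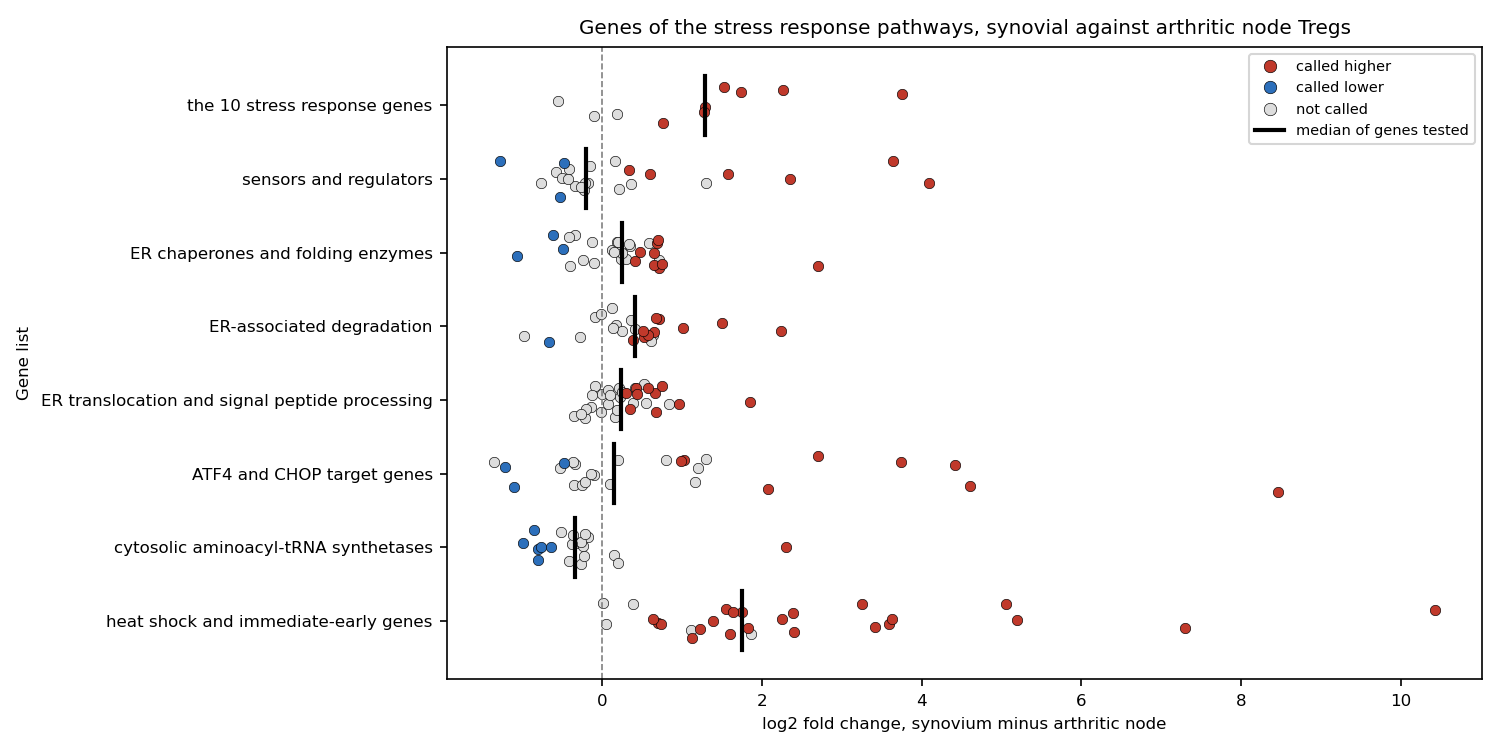
Log2 fold change between synovium and arthritic node (x axis) of each tested gene in the 10 and in 7 pathway lists, 1 point per gene, coloured by call, with the list median as a bar. The medians are 1.28 for the 10 genes, -0.34 for aminoacyl-tRNA synthetases and 1.76 for heat shock and immediate-early genes.

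Genes of cytosolic heat shock and of the immediate-early response moved with the same contrast. Of 27, 22 (81.5%, all genes 17.9%) were higher in synovium and 0 lower (all genes 15.9%), with a median of 1.76. With library totals the counts of this list were 19 and 0. Their summed share of a library was 1.94 to 2.15% in synovium, 0.653 to 0.915% in the arthritic node and 0.654 to 0.723% in the control node. Hspa1a, a heat-induced cytosolic Hsp70, had counts of 9325, 11453 and 13698 in synovium, and 18.3, 27.9 and 0 in the arthritic node. Hspa1b, nearly identical in sequence so that reads may be split between the pair, had 174, 184 and 236 in synovium and at most 0.962 in the arthritic node. Fos rose by 5.19 (4.43 without arthritic node library 3) and Fosb by 5.06. The part of this response in the rise of Ppp1r15a, Atf4 and the other 5 genes was not tested.

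Markers of other cells were read in the same libraries. Plasma cells are rich in Xbp1 and ER chaperones. The 12 B and plasma cell markers summed to 0.00234 to 0.00344% of a library in synovium and to 0.00430 to 0.00676% in the nodes. Most of that sum was Cd79b, a B cell marker (179, 352 and 311 in synovium). The sum does not show plasma cells apart from B cells. Mzb1 was at 0 in synovium, as in the node libraries other than arthritic library 1 (13.0) and control library 1 (18.1). Sdc1, another plasma cell marker, had 22.0, 99.8 and 44.9 in synovium. In the nodes Sdc1 had 3.48, 0 and 51.5 (arthritic) and 34.1, 0 and 0 (control). Igj had 70.5, 8.22 and 0 in synovium and 0 to 53.3 in the nodes. Derl3 had 8.82, 18.8 and 10.1 in synovium and 4.01 to 55.7 in the nodes. The 16 fibroblast markers summed to 0.0219 to 0.0566% in synovium and 0.0335 to 0.0419% in the arthritic node, most of it from Thy1, which T cells also express, and Prg4. Col1a1 stood at 402 in synovial library 3 and at 38.6 and 1.17 in the other two. Of the 9 fibroblast markers tested against the arthritic node, 2 were called higher and 1, Prg4, lower, with a median of 2.34. The higher pair were Sparc (44.1, 71.6 and 768 against 0.870, 0.962 and 44.6) and Fn1 (65.0, 45.8 and 1239 against 0, 12.5 and 26.2). The 12 dendritic cell markers summed to 0.0958 to 0.114% in synovium and 0.0284 to 0.0501% in the nodes, with Clec9a at 0 in all 9 libraries and Itgax at 0 in synovium. Of the 7 dendritic markers tested, 3 were called higher than in the arthritic node. They were Zbtb46 (537, 538 and 607 against 4.35, 0 and 62.9), Xcr1 (307, 540.1 and 471 against 23.5, 20.2 and 19.2) and Cd74 (11868 to 14727 against 4356 to 5228). The 12 macrophage and monocyte markers summed to 0.0397 to 0.0530% in synovium and 0.0808 to 0.105% in the nodes. Most of that sum was Ctss (5370 to 7208 in synovium and 9010 to 11386.5 in the nodes). Of the 6 tested against the arthritic node, 1 was called higher and 2 lower. Cd14 was higher in synovium (70.5, 196 and 66.3 against 0, 0 and 14.9), and Apoe lower (88.2, 45.8 and 23.6 against 626, 130 and 710). The 12 neutrophil markers summed to 0.00323 to 0.00512% in synovium, 0.000397 to 0.00227% in the arthritic node and 8.85e-06 to 0.000606% in the control node. Except in control library 1, most of that sum was Mmp9 (368 to 582 in synovium and 0 to 231 in the nodes). Ltf reached 107 in synovium and 18.3 in the nodes. S100a8 had 4.41, 34.1 and 1.12 in synovium and 0 in all node libraries, while Elane and Csf3r were at 0 in all 9 libraries. Of the 2 neutrophil markers tested, 1 was called higher and 0 lower than in the arthritic node, and 2 higher than in the control node. The 8 CD8 T and NK cell markers summed to 0.0129 to 0.0185% in synovium and 0.00691 to 0.0128% in the nodes, with Ncr1 at 0 throughout. Most of that sum was Nkg7 (1570 to 2514 in synovium and 609 to 1346 in the nodes). Of the 4 tested against the arthritic node, 1 was called higher and 0 lower. The part of these other cell types in the results was not tested.

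In the nodes, none of the pathway genes outside the 10 was called between arthritis and control by limma on all 9 libraries with the trend and a pseudocount of 1. They were 180 genes in the 7 lists, of which 24 had an unadjusted p under 0.05, 10 of them among the 27 heat shock and immediate-early genes. Over all 11357 genes, 1031 had an unadjusted p under 0.05 in this comparison. DESeq2 called 3 genes of these lists, Dnajb1, Fosb and Ppp1r15b, and edgeR called Fosb. Limma without the trend or with a pseudocount of 0.5 also called Fosb, and without arthritic node library 3 it called Hspa1a.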

How the data were processed

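Total RNA of the sorted cells was made into directional libraries, per the labels' protocols. The submitters' processing notes name HISAT2, HTSeq, DESeq2 and the mm10 build, without versions or settings. The deposited table holds, per the file headers, 1 column a library of normalised counts, a signal made by the authors by dividing read counts by a size factor: 100% of its values are whole multiples of the value of 1 read (within 0.01), and the reads so recovered gave the depths. The authors' deposited table of log2 fold changes, test scores and p-values compares synovium with the arthritic node. DESeq2 on the recovered reads differed from it by at most 1.36e-06 in log2 fold change, and it was used for that check only.

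Here limma 3.58.1 (R 4.3.3, trend on, pseudocount 1, genes with a mean of 10 or more) was fitted to all 9 libraries. The same fit was run on simulated counts with known changes, and no result given here rests on that run. Alternatives were edgeR 4.0.16, DESeq2 1.42.0, other pseudocounts (0.5 and 5), filters (none and 50), scalings, the 2 groups alone, no trend, a 2-fold minimum, each library left out and the mouse as a block. The scaling by library totals was added after the data were seen. Synovial and node libraries with the same number come from the same mouse by their titles. Their deviations from the group means correlated at 0.0239, 0.0540 and 0.0891, and 3 of 3 synovial libraries correlated best with their own mouse. Libraries of different mice correlated between -0.0859 and 0.0414. The 3 matches are not independent, as the deviations share the same group means, and the pairing was not tested. Positions and lengths are from GENCODE vM21 (GRCm38).

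The 10 genes and the lists were chosen with earlier results of these data known. From each list up to 4 called genes per direction with the largest change and a mean of at least 50 in the higher group are named, and others are named as stated.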

Additional observations from a re-analysis of the deposited data

How the results depend on the processing

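The count of 7 genes called higher in synovium was 6 or 7 under every alternative, in both synovial comparisons. Against the arthritic node it was 6 without arthritic node library 2 or synovial library 1 (Asns) and with a 2-fold minimum (Herpud1). The leave-one-out range was 6 to 7 there and 7 to 7 against the control node. Between the node groups it was 0 except with DESeq2, which called 1. Over 540 values of the 10 genes under alternatives, 526 kept direction and side of the threshold, 2 lost the call and 1 gained it. The 11 that turned sign all belong to uncalled differences. Against the arthritic node they were Sdf2l1 without arthritic node library 3 (0.0020, leave-one-out range -0.27 to 0.0020), Ddit3 with library totals (-0.13) and Trib3 without synovial library 2 (0.13, range -1.09 to 0.13). Between the nodes they were Atf4 without control library 1 (0.036, range -0.35 to 0.036) and Trib3 without control library 3 (-0.11, range -0.11 to 1.09). Against the control node they were Sdf2l1 with library totals (-0.23) and without control library 1 (-0.085, range -0.085 to 0.17), Ddit3 without control library 1 (0.0066) and without synovial library 3 (0.020, range -0.18 to 0.020), and Trib3 without control library 1 (0.54) and without synovial library 2 (0.60, range -0.67 to 0.60). Of the named kinases, Eif2ak1 turned to -0.10 with library totals, Eif2ak2 to 0.12 without arthritic node library 2 and to 0.012 without synovial library 1 (range -0.41 to 0.12). Eif2ak4 turned to -0.015 with edgeR, -0.15 with library totals, -0.36 without arthritic node library 2 and -0.060 without synovial library 2 (range -0.36 to 0.55). The cause was not tested.

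Over all genes, a 2-fold minimum left 2146 of 3844 calls against the arthritic node and 2646 of 4551 against the control node. Between the nodes the 39 calls became 175 with DESeq2, 10 without the trend, 20 with only these 2 groups, and 0 to 64 when single libraries were left out. The fewest, 0 and 1, came without arthritic node libraries 2 and 3, 23 came without control library 2, and 64 without control library 3. With the replicate number as a block they became 62, among them Dnajb1, Jun and Zfp36 of the heat shock and immediate-early list, although these numbers name different mice in the node groups. The block changed no call among the 10 genes in any comparison.

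Of the 14 list counts against the arthritic node, library totals moved 9 by over 1.5 times, quantile scaling 7 and a 2-fold minimum 7. With that minimum the higher counts of chaperones, degradation and translocation were 1, 3 and 1, and the lower counts of sensors, chaperones, degradation and synthetases were 1, 1, 0 and 0. With quantile scaling the higher and lower counts were 4 and 7 for sensors, 6 and 7 for chaperones, 6 and 1 for degradation, 5 and 6 for translocation, 8 and 5 for ATF4 and CHOP targets, 1 and 13 for synthetases, and 20 and 0 for heat shock and immediate-early genes. The intervals were widest for Trib3 and next for Asns, which had the lowest read numbers and a wide spread between libraries.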
